A study of Homo sapiens with 36 samples.

Results

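The genes described here make, take up and export cholesterol, and they are 32 of the 60675 genes in the count table. They were listed by symbol and each matched a single gene identifier. By role, 8 encode enzymes from acetyl-CoA to squalene, 11 enzymes from squalene to cholesterol, 5 the SREBP control system, 3 proteins of uptake and intracellular transport, and 5 liver X receptors (LXR) with their efflux and degradation targets. The list was drawn up with earlier results of these data known, and its rule uses no measured value. In the 8 comparisons of a treatment with its vehicle, 9 of the 32 genes changed at least once, and 8 of these 9 did so in astrocytoma cells at the high dose of the plant extract, the comparison with the largest share of calls over all tested genes (18.1%, against 2.89% at the same dose in the colorectal cells).

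RNA was sequenced from 36 libraries of 2 human cell lines, SW1783, derived from an astrocytoma, and HT29, derived from a colorectal adenocarcinoma. For 24 h the cells received vehicle, wortmannin or a water extract of processed lateral roots of *Aconitum carmichaeli* Debeaux (ACD), and the study asked in which of the lines the extract has the stronger effect. Each line had 6 groups of 3 replicates. In batch A, cells received vehicle or wortmannin at 10 µM, which blocks the lipid kinase PI3K and was the positive control. In batch B, cells received vehicle or ACD at 500 (high), 100 (medium) or 20 µg/mL (low). The labels give 0.1% DMSO as the vehicle in both batches. The labels name no engineered allele in any group, and all groups of a line share the same parental cells. SW1783 was kept in L-15 medium without added CO2 and HT29 in DMEM under 5% CO2, so that cell line and culture conditions cannot be told apart.

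Library totals ranged from 15941250 to 33866636 counts, and a count of 0 allowed up to 3 counts, or 0.089 to 0.188 CPM, the count scaled to a common library total. SW1783 expressed the mesenchymal markers VIM and COL1A2, whereas the astrocyte markers GFAP, S100B, AQP4 and ALDH1L1 had a median of at most 0.088 CPM and SLC1A3 one of 32.1 CPM. HT29 expressed the epithelial markers EPCAM and KRT20 at medians of 534 and 253 CPM. Transcripts of the mitochondrial ribosomal RNA genes took 0.932% ± 0.025 of the counts in the SW1783 vehicle of batch B and 3.14% ± 0.164, 7.83% ± 0.199 and 5.93% ± 0.15 at the low, medium and high doses (SD, n = 3). In HT29 the shares were 1.18% ± 0.04, 1.08% ± 0.09, 2.1% ± 0.121 and 11.96% ± 0.634. The part of these shares in the results below was not tested, and leaving those genes out changed no call among the 32. Replicate 2 of the HT29 high dose stood apart. Its chi-square per degree of freedom was 64.3 and 65.1 against its own replicates, which differed from each other by 9.33. Values without replicate 2 are given beside the HT29 results at the high dose and the line differences at that dose. HT29 vehicle replicate 1 differed from its partners by 13.8 and 15.8 in batch B and 13.5 and 15.5 in batch A. Those partners differed from each other by 3.78 and 3.54, and pairs at the HT29 low dose by up to 19.97. Nothing in the labels says that replicates came from separate cultures, so p-values measure the spread between these libraries, which may be technical.

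Cells hold their cholesterol within narrow limits through a pair of opposed transcriptional systems. The SREBP proteins, encoded by SREBF1 and SREBF2, lie in the endoplasmic reticulum bound to SCAP. When sterols are scarce SCAP escorts them to the Golgi, where proteases release a fragment that enters the nucleus and switches on enzymes of synthesis and proteins of uptake. When sterols are plentiful the INSIG proteins hold SCAP back. The LXR proteins, encoded by NR1H2 and NR1H3, are activated by oxysterols and switch on the exporters ABCA1 and ABCG1, the ubiquitin ligase MYLIP, which marks lipoprotein receptors for breakdown, and SREBF1. In the brain, astrocytes make cholesterol and hand it to neurons through ABC exporters, and in the intestine NPC1L1 takes up cholesterol from the gut lumen.

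A gene was called when its adjusted p-value in the Wald test of DESeq2 was under 0.05 and it changed by more than 1.5-fold, a log2 fold change beyond 0.585. The high dose of ACD in SW1783 gave 8 calls among 31 tested genes (25.8%), where 18.1% of all tested genes were called. Of these 8, 7 were higher and a single one was lower, and the background was 8.62% higher and 9.52% lower. The median log2 fold change of the 31 genes was 0.31, and that of all tested genes was −0.01. The higher genes were ABCG1, ABCA1, NPC1, INSIG1, SREBF1, MSMO1 and INSIG2, and the lower one was EBP. Bulk RNA cannot tell fewer cells of a kind from less RNA per cell. The map of fold changes over all treatments shows these calls in the column of the high dose.

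**Figure D1:**
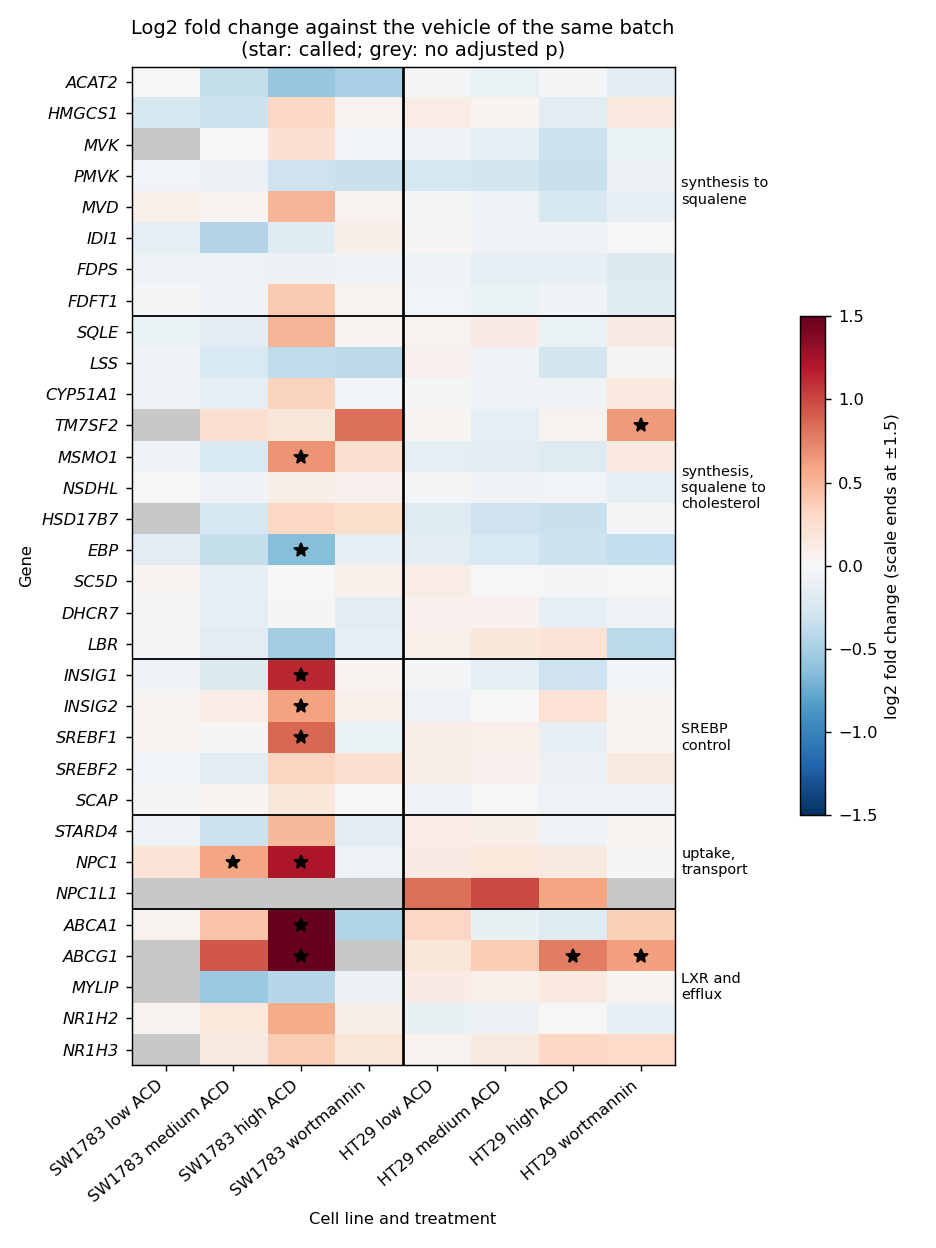
Log2 fold change of the 32 genes (rows, by role) against the vehicle of the same batch in each of the 8 comparisons (columns). Red is higher and blue is lower than vehicle, stars mark the 12 calls, grey marks genes without an adjusted p-value, and 8 of the 12 stars stand in the SW1783 high ACD column.

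The steps from acetyl-CoA to squalene moved in both directions at the high dose in SW1783, and none of the 8 enzymes was called. Past the adjusted p-value alone, a rule that 46.2% of all tested genes met, 3 of the 8 were higher and 3 were lower. FDFT1, the enzyme that makes squalene, had a log2 fold change of 0.40 ± 0.045 (SE, n = 3 per group, adjusted p = 1.05e-17). MVD, which makes isopentenyl diphosphate, had 0.51 ± 0.083 and HMGCS1, the HMG-CoA synthase at the entry to the mevalonate pathway, had 0.31 ± 0.061. On the other side stood ACAT2, a cytosolic thiolase that condenses acetyl-CoA, with −0.57 ± 0.077, and the kinase PMVK and the isomerase IDI1 with −0.31 ± 0.112 and −0.18 ± 0.06. ACAT2 lay just inside the fold limit, and it was called when vehicle replicate 1 was left out. The mevalonate kinase MVK and the farnesyl diphosphate synthase FDPS had log2 fold changes of 0.23 and −0.09, with adjusted p-values of 0.109 and 0.203.

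Between squalene and cholesterol, MSMO1 rose and EBP fell. MSMO1, a methylsterol monooxygenase that acts in the removal of methyl groups from the sterol ring, had normalized counts of 941, 894 and 892 in the vehicle replicates and 1451, 1519 and 1387 at the high dose. The groups did not overlap, and the log2 fold change was 0.68 ± 0.058 (1.6-fold, adjusted p = 8.91e-30). EBP, the sterol isomerase that shifts a double bond within the ring, went from 932, 881 and 925 in vehicle to 551, 609.9 and 592, with every treated library below every vehicle library. Its log2 fold change was −0.64 ± 0.072 (adjusted p = 4.44e-18). MSMO1 lies at chr4:165327667-165343164, plus strand, and EBP at chrX:48521799-48528716, plus strand (GRCh38, gene span).

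The other 9 enzymes of this segment were not called. SQLE, the squalene epoxidase that catalyses a rate-limiting step, had normalized counts of 1316, 1312 and 1316 in vehicle against 1867, 1834 and 1905 at the high dose, a log2 fold change of 0.51 ± 0.048 (adjusted p = 4.75e-25) that stayed under the fold limit. The sterol demethylase CYP51A1 likewise passed on the adjusted p-value alone, at 0.33 ± 0.036. In the opposite direction, LSS, which closes the ring to lanosterol, had −0.38 ± 0.06. LBR had −0.52 ± 0.051 and TM7SF2, its counterpart as a sterol reductase, had 21.5, 14.9 and 19.8 normalized counts in vehicle against 18.5, 20.7 and 23.4 at the high dose, where the groups overlapped. NSDHL, SC5D, DHCR7 and HSD17B7, which act after MSMO1 or in the last steps, had log2 fold changes of 0.10, 0.00, 0.01 and 0.31, with adjusted p-values from 0.155 to 0.996.

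Of the 5 SREBP control genes, 3 were called higher at the high dose in SW1783, where 8.62% of all tested genes were called higher. All 5 passed the adjusted p-value with a higher level, as 46.2% of all tested genes passed it in either direction, and their median log2 fold change was 0.60. INSIG1, the sterol-responsive anchor of SCAP, had normalized counts of 2566, 2755 and 2631 in vehicle against 5696, 5776 and 5917 at the high dose. The lowest treated library was above the highest vehicle library by a wide margin, and the log2 fold change was 1.13 ± 0.04 (2.19-fold, adjusted p = 1.12e-169). SREBF1, which encodes SREBP-1 and is itself a target of LXR, rose from 908, 1002 and 996 to 1765, 1707 and 1805, a log2 fold change of 0.86 ± 0.058 (adjusted p = 8.57e-48). INSIG2, the second anchor, had 306, 269.8 and 222 in vehicle against 382, 424 and 400.3 at the high dose. Its log2 fold change of 0.60 ± 0.112 (adjusted p = 4.27e-07) was just beyond the limit, and the call was lost without high replicate 2 or vehicle replicate 3, where it was 0.56 or 0.49.

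SREBF2, which encodes the SREBP that mainly drives cholesterol synthesis, and the escort SCAP were higher by less than the fold limit. SREBF2 had 1821, 1832 and 1809.8 normalized counts in vehicle against 2227, 2268 and 2335 at the high dose, with a log2 fold change of 0.32 ± 0.044 (adjusted p = 1.22e-12). The groups did not overlap. SCAP had a log2 fold change of 0.17 ± 0.046 (adjusted p = 0.000722). INSIG1 lies at chr7:155297776-155310235, plus strand, INSIG2 at chr2:118088452-118110997, plus strand, SREBF1 at chr17:17810399-17837002, minus strand and SREBF2 at chr22:41833105-41907306, plus strand.

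The DNA before the start sites of INSIG1 and SREBF2 is shown because SREBP proteins are known to act through short motifs near such starts. RefSeq windows (GRCh38.p14) of 250 bases before to 50 after the start were given for 28 of the 32 genes, and for 8 of the 9 called genes. Starts here are those of RefSeq. The INSIG1 start lies inside the gene span given above, so part of its printed window falls within that span. The core of the sterol regulatory element was searched as TCACNCCAC and the box of the partner factor NF-Y as CCAAT, each on both strands, and the motifs did not overlap in the windows printed. The core stood in 1.13% of all 35116 windows and, among the genes described here, in the SREBF2 window alone, which was printed after its values were seen. CCAAT stood in 34.6% of all windows, in at least 1 window of 19 of the 28 genes (some have several) and in 4 of the 8 called genes with a window, MSMO1, EBP, INSIG1 and TM7SF2. The 250 bases before the start follow, 5′ to 3′ on the strand of the gene, with matches in capitals: in INSIG1 (chr7:155297628-155297877, plus strand) a reverse CCAAT from 170 to 166 bases before the start, and in SREBF2 (chr22:41832855-41833104, plus strand) the core from 133 to 125 and a reverse CCAAT from 106 to 102 bases before it.
INSIG1: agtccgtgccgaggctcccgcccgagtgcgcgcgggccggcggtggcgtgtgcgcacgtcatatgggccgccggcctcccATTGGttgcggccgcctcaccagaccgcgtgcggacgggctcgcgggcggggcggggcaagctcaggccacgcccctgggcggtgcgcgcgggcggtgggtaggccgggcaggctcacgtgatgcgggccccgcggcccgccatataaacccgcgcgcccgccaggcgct
SREBF2: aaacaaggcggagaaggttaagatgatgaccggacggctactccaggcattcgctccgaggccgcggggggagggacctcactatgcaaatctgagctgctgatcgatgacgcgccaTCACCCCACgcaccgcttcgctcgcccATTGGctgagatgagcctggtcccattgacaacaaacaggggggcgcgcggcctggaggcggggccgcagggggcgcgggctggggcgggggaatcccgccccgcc
A match describes letters only, and INSIG1, the more strongly changed of the pair in SW1783, held no TCACNCCAC in its window.

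Of the 3 genes of uptake and transport, NPC1 rose in SW1783. NPC1, the lysosomal membrane protein that lets cholesterol out of lysosomes, had normalized counts of 4159, 3936 and 3899.6 in vehicle against 9231, 9116 and 9362 at the high dose, with no overlap. The log2 fold change was 1.21 ± 0.033 (2.31-fold, adjusted p = 1.24e-285). STARD4, which carries sterol through the cytosol, had 0.49 ± 0.062 (adjusted p = 1.75e-14) and stayed under the fold limit. NPC1L1, the intestinal cholesterol importer, had 0 raw counts in each vehicle library of SW1783 and 0, 2 and 1 at the high dose, at or under the floor of 3 counts, and it had no adjusted p-value and is given no fold. NPC1 lies at chr18:23506184-23586506, minus strand.

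The exporters showed the widest changes of all 32 genes. ABCA1, which loads cholesterol and phospholipid onto apolipoproteins, had normalized counts of 1291, 1322 and 1319 in the SW1783 vehicle replicates and 7468, 7516 and 7274 at the high dose. All treated libraries lay far above all vehicle libraries, with a log2 fold change of 2.50 ± 0.041 (5.66-fold), and the adjusted p-value of DESeq2 was too small to be told from 0. ABCG1, which passes cholesterol to lipoprotein particles, had only 4, 9 and 5 raw counts in vehicle against 61, 89 and 82 at the high dose. In normalized counts this was 4.1, 7.9 and 5.2 against 70.6, 80.2 and 76.7, a log2 fold change of 3.71 ± 0.489 (adjusted p = 2.51e-13), with a wide error beside few vehicle counts. Both exporters kept their calls under every alternative tried.

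The other genes of the LXR group moved less. NR1H2, the LXR found in most cell types, had 642, 700.0 and 667 normalized counts in vehicle against 963, 991 and 1004 at the high dose. At 0.56 ± 0.076 on the log2 scale (adjusted p = 1.42e-12) it lay just under the fold limit, and it was called when vehicle replicate 2 was left out. NR1H3, the LXR of liver, macrophages and intestine, was low in SW1783, at 41.2 to 50.2 in vehicle against 50.9 to 72.1 at the high dose (log2 fold change 0.38 ± 0.247, adjusted p = 0.209). MYLIP was lower, from 306, 310.1 and 329.9 to 222, 246 and 235, a log2 fold change of −0.43 ± 0.109 (adjusted p = 0.000297). MYLIP therefore stood on the other side of 0 from ABCA1 and ABCG1. ABCA1 lies at chr9:104781006-104928155, minus strand, and ABCG1 at chr21:42199689-42297244, plus strand.

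The window of ABCA1, the called exporter for which one was given, is shown because its gene had the largest change with a window. LXR binds DR4, a direct repeat of AGGTCA with 4 bases between. Exact copies of this repeat were searched on both strands and stood in 0.0199% of all windows (7 of 35116) and in none of the 28 genes. So rare a string cannot set these genes apart from others, and imperfect repeats were not searched. The 250 bases before the start of ABCA1 (chr9:104928156-104928405, minus strand) held no exact copy of the 3 motifs and are therefore printed without capitals. This says only that these exact letters are not in this window, and an imperfect LXR element there would go unmarked.
ABCA1: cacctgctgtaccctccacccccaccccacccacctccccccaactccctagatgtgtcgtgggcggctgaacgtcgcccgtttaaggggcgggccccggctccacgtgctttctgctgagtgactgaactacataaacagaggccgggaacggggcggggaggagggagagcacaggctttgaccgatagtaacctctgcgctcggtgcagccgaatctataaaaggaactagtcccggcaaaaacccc
No window was given for ACAT2, FDFT1, SQLE and ABCG1.

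The response to dose in SW1783 was not a simple scale from low to high. At the medium dose a single gene of 31 tested was called (3.2%, with a background of 3.81%), NPC1, at 5910.4, 6173 and 5952 normalized counts and a log2 fold change of 0.59 ± 0.034 (adjusted p = 3.42e-65). That call sat on the limit and was lost without medium replicate 2 or vehicle replicate 2 or 3. Past the adjusted p-value alone, which 29.2% of all tested genes met, 2 genes were higher, NPC1 and ABCA1, and 13 were lower. ABCA1 had 1797, 1688 and 1803 normalized counts and a log2 fold change of 0.43 ± 0.044. The 13 lower genes included INSIG1 (−0.22 ± 0.043), SREBF2 (−0.18 ± 0.045), STARD4 (−0.32 ± 0.065) and 9 enzymes of synthesis, from IDI1 (−0.44 ± 0.061) to CYP51A1 (−0.15 ± 0.037). MYLIP was the lowest of them at −0.55 ± 0.11. ABCG1 had 2, 17 and 15 raw counts at this dose and was not called (adjusted p = 0.198), although it was called when medium replicate 1 was left out.

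At the low dose in SW1783 none of 25 tested genes was called by DESeq2 or by edgeR, where 0.124% of all tested genes were called, and 5 of the 25 had an unadjusted p-value under 0.05. NPC1 and HMGCS1 passed the adjusted p-value, which 3.5% of all genes did. NPC1 had 4619.7, 4746 and 4421 normalized counts (log2 fold change 0.20 ± 0.034, adjusted p = 1.15e-06), and HMGCS1 had a log2 fold change of −0.24 ± 0.062 (adjusted p = 0.00666). The mean of NPC1 was thus 3998 ± 140.5, 4596 ± 164, 6012 ± 141 and 9236 ± 123 from vehicle to the high dose (SD, n = 3), a step upward at each dose. The mean of INSIG1 was 2651 ± 96.3, 2555 ± 124, 2279 ± 69.5 and 5796 ± 112, with the lowest value at the medium dose. The mean of ABCA1 was 1311 ± 16.9, 1356 ± 49.4, 1762 ± 64.6 and 7419.5 ± 128, with most of the change between the medium and the high dose.

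The direct comparison of the high with the medium dose in SW1783 leaves the vehicle level out of its log2 differences, although the vehicle libraries are in the fit. It called 9 of 31 tested genes, all higher at the high dose, where 4.56% of all tested genes were called higher and 10.2% in either direction. By the adjusted p-value alone, 22 of the 31 genes and 40.6% of all tested genes differed. Enzymes of synthesis among them were MSMO1 (log2 difference 0.91 ± 0.06), SQLE (0.67 ± 0.049) and HMGCS1 (0.63 ± 0.062). INSIG1 (1.35 ± 0.041) and SREBF1 (0.84 ± 0.058) were the called control genes, and STARD4 (0.81 ± 0.063) and NPC1 (0.62 ± 0.032) the called transport genes. ABCG1 (2.78 ± 0.431) and ABCA1 (2.08 ± 0.039) had the widest differences. HMGCS1, SQLE and STARD4 are on this list and not on that of the high dose against vehicle, and their medium values lay below those of the vehicle: STARD4 had 1011, 946 and 989.7 normalized counts in vehicle, 842, 761 and 759 at the medium dose and 1416, 1425 and 1294 at the high dose. SQLE had 1208, 1169 and 1158 and HMGCS1 938, 1011 and 931 at the medium dose. The plot of normalized counts by dose shows the bend at the medium dose for INSIG1 and SREBF2.

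**Figure D2:**
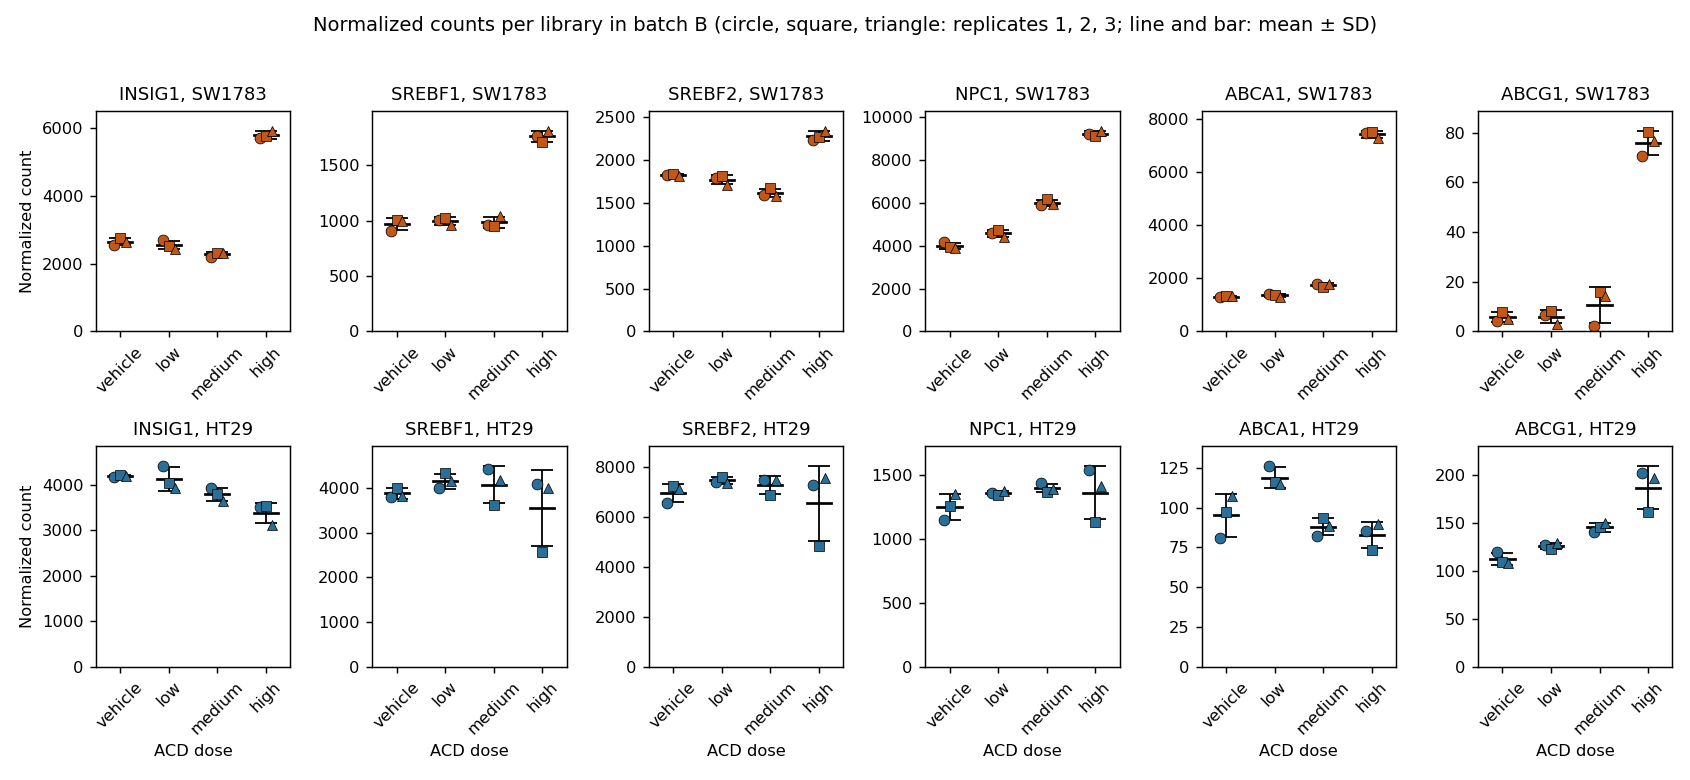
Normalized counts (vertical axes, starting at 0) of INSIG1, SREBF1, SREBF2, NPC1, ABCA1 and ABCG1 in each library of batch B, by dose of ACD, in SW1783 (upper row) and HT29 (lower row). Symbols are replicates, and lines with bars are the mean ± SD of 3. In SW1783 the high dose lies above all other groups for each gene, whereas in HT29 ABCG1 alone is set apart upward at the high dose and replicate 2 (squares) lies below its partners for SREBF1 and SREBF2.

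In HT29 the same doses of ACD left nearly all of these genes under the fold limit. At the high dose a single gene of 32 tested was called (3.1%, with a background of 2.89%), ABCG1, and the median log2 fold change was −0.07 against 0.006 over all genes. It had normalized counts of 119, 109 and 108 in vehicle, 127, 122 and 129 at the low dose, 140.3, 145 and 149 at the medium dose and 202, 161 and 197 at the high dose. Every library at the high dose was above every other library, and the log2 fold change was 0.76 ± 0.141 (1.7-fold, adjusted p = 4.35e-06), and 0.84 ± 0.161 without high replicate 2. At the medium dose ABCG1 had 0.38 ± 0.143 (adjusted p = 0.18), with all 3 treated libraries above all 3 of vehicle. ABCA1 did not pass: it had 80.8, 97.3 and 108 in vehicle against 85.1, 73.5 and 89.6 at the high dose, with a log2 fold change of −0.19 ± 0.174 (adjusted p = 0.645), and −0.13 ± 0.204 without high replicate 2. NPC1 was not called in HT29, with 1148, 1256 and 1351 in vehicle against 1540.1, 1135 and 1419 at the high dose, where replicate 2 lay below the other two (log2 fold change 0.13 ± 0.108, and 0.24 ± 0.076 without it).

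The SREBP control genes of HT29 were not called at the high dose. INSIG1 had 4190.1, 4228 and 4202 normalized counts in vehicle against 3510.3, 3529 and 3128 at the high dose. All treated libraries were lower, with a log2 fold change of −0.31 ± 0.07 (adjusted p = 0.000326). SREBF1 had 3806, 4018 and 3829 in vehicle against 4106, 2579.7 and 3999.8 at the high dose, and SREBF2 had 6574, 7239.8 and 7126 and 7274, 4826 and 7557. In both genes replicate 2 was the lowest of the high dose libraries and the other two lay near or above vehicle (log2 fold change −0.12 ± 0.154 for SREBF1 and −0.09 ± 0.142 for SREBF2, adjusted p = 0.76 and 0.827). Without replicate 2 the values were 0.06 ± 0.077 for SREBF1, 0.09 ± 0.058 for SREBF2 and −0.34 ± 0.068 for INSIG1, and of these INSIG1 alone passed the adjusted p-value. INSIG2 and SCAP had 0.22 ± 0.167 and −0.07 ± 0.111 with all libraries and −0.04 ± 0.093 and 0.06 ± 0.063 without replicate 2.

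Past the adjusted p-value alone, which 7.55% of all genes met, 7 of the 32 genes of HT29 differed at the high dose. LBR, NR1H3 and ABCG1 were higher, with NR1H3 at 1219, 1131 and 1076 in vehicle against 1432, 1451 and 1363 at the high dose (log2 fold change 0.31 ± 0.069, adjusted p = 0.000358). MVK, LSS, HSD17B7 and INSIG1 were lower, at −0.33 ± 0.098, −0.28 ± 0.059, −0.34 ± 0.108 and −0.31 ± 0.07. Without high replicate 2 these were −0.30 ± 0.096, −0.23 ± 0.054, −0.42 ± 0.111 and −0.34 ± 0.068, and NR1H3 and LBR had 0.29 ± 0.075 and 0.18 ± 0.065. The count depended on the library that stood apart. Without high replicate 2 the rule was met by 18 of 31 tested genes, 4 higher and 14 lower, with 18% of all genes as background, and ABCG1 remained the single call past the fold limit (background 4.02%). The 14 lower genes were then INSIG1 and 13 of the 19 enzymes of synthesis, among them ACAT2 (−0.35 ± 0.069, against −0.03 ± 0.183 with all libraries), IDI1 (−0.32 ± 0.064), HMGCS1 (−0.33 ± 0.074) and EBP (−0.46 ± 0.107). ACAT2 had 1872, 3402 and 2024 normalized counts in the high dose libraries, with replicate 2 above all 3 vehicle libraries (2543, 2436 and 2462) and the others below them.

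At the medium and the low dose in HT29, none of the 32 genes was called by DESeq2 or edgeR, with backgrounds of 0.836% and 0.317%, and none passed the adjusted p-value, which 2.15% and 0.653% of all genes did. An unadjusted p-value under 0.05 was found for 5 genes at the medium and for 0 at the low dose. The median log2 fold change of the 32 genes was −0.05 and 0.03, and between −0.004 and 0.002 over all tested genes. The high dose did not differ from the medium dose past the fold limit for any of 31 tested genes in DESeq2 or edgeR (background 0.726%), although 6 had an unadjusted p-value under 0.05 and a single one passed the adjusted p-value (1.77% of all genes). Without high replicate 2, 0 of 32 tested genes were called by DESeq2 (background 0.583%) and 3 passed the adjusted p-value (2.03% of all genes). An unadjusted p-value under 0.05 was then found for 13 of the 32, and for 1408 of all 15944 tested genes. NPC1L1, although HT29 is of intestinal origin, had raw counts of 2, 9 and 5 in vehicle against 11, 4 and 6 at the high dose, with an adjusted p-value of 0.725 and none without high replicate 2.

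**Figure D3:**
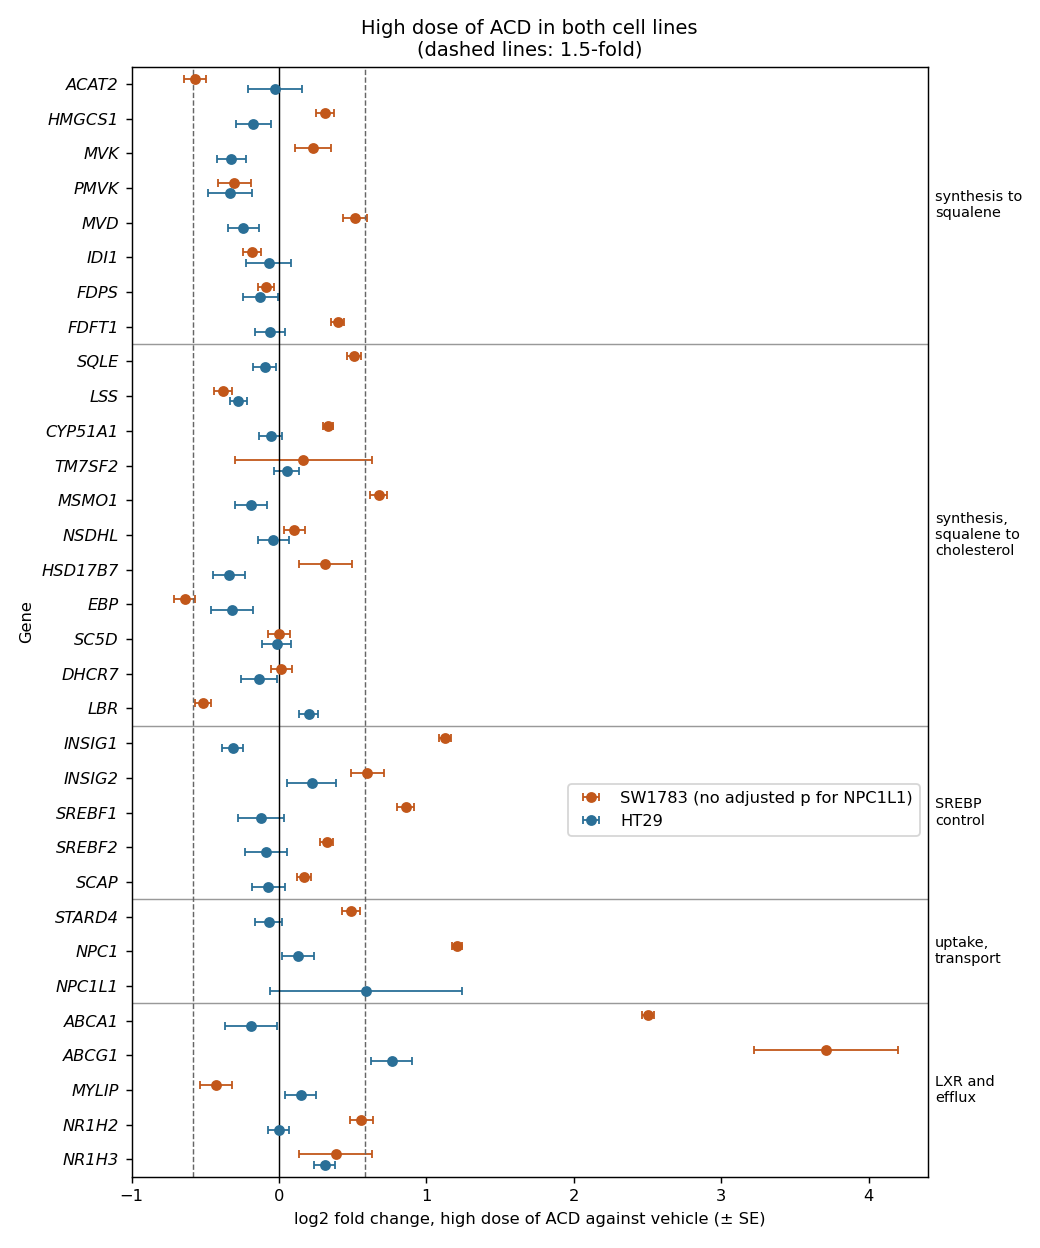
Log2 fold change ± SE (horizontal axis) of each gene (vertical axis, by role) at the high dose of ACD against vehicle in SW1783 (orange) and HT29 (blue), with dashed lines at 1.5-fold. The SREBP control, NPC1 and ABCA1 points of SW1783 lie to the right of those of HT29, LBR and MYLIP lie to the left, and ABCG1 lies beyond the dashed line in both.

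Whether the lines responded differently was tested directly as an interaction over the 24 libraries of batch B, with the direction SW1783 minus HT29. At the high dose 10 of 32 genes differed past the fold limit (31.2%, with 14.6% of all genes), 8 with the higher response in SW1783 and 2 with the lower. Without the fold limit, 18 of the 32 and 27.6% of all genes differed. The log2 difference in response was 2.90 ± 0.394 for ABCG1, 2.64 ± 0.138 for ABCA1, 1.40 ± 0.075 for INSIG1 and 1.03 ± 0.104 for NPC1. ABCG1 thus rose in both lines, but further in SW1783 (adjusted p = 4.82e-12). SREBF1 differed by 0.94 ± 0.172 (adjusted p = 6.72e-07), and by 0.75 without the HT29 library that stood apart.

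Among the enzymes of synthesis the interaction called MSMO1 (0.83 ± 0.114), MVD (0.71 ± 0.127) and HSD17B7 (0.61 ± 0.172), each with a positive estimate in SW1783 and a negative one in HT29. LBR, which also anchors chromatin at the nuclear envelope, differed the other way by −0.76 ± 0.072 (adjusted p = 5.51e-24), with 1670.3, 1598 and 1616 against 1107, 1169 and 1135 in SW1783 and 4071, 4508 and 4759 against 4982, 5245 and 5119 in HT29. MYLIP differed by −0.62 ± 0.127 at the high dose and by −0.65 ± 0.128 at the medium dose (adjusted p = 1.3e-05 and 2.04e-05). At the medium dose it was the single gene of 31 called (background 3.33%), and 6 passed the adjusted p-value alone (10.4% of all genes). The call for HSD17B7 was lost without any of 4 libraries (HT29 high replicate 1 or 3, SW1783 vehicle replicate 2 or 3), and that for MYLIP at the high dose without HT29 vehicle replicate 2 or SW1783 high replicate 1 and in edgeR. Without HT29 high replicate 2 all 10 calls held, and HMGCS1 and INSIG2 were added. The differences were then 2.82 for ABCG1, 2.59 for ABCA1, 1.42 for INSIG1, 0.93 for NPC1, 0.93 for MSMO1, 0.69 for MVD, 0.69 for HSD17B7, −0.75 for LBR and −0.65 for MYLIP.

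The lines already differed widely in these genes without treatment. In the vehicle libraries of batch B, 25 of 32 genes differed past the fold limit (78.1%, with 55.4% of all genes), and the median log2 difference, SW1783 minus HT29, was −1.35 for the 32 genes and 0.057 for all genes. Only NPC1 (1.91 ± 0.074) and ABCA1 (4.01 ± 0.094, 16.1-fold) were higher in SW1783. The other 23 were higher in HT29, among them 17 of the 19 enzymes of synthesis. SQLE was at 17243 ± 200.3 normalized counts in HT29 and 1423 ± 3.0 in SW1783 (SD, n = 3), DHCR7, which makes cholesterol in the last step, at 9842 ± 388 and 785 ± 29.4, and TM7SF2 at 888 ± 82.0 and 20.3 ± 3.7. SREBF1 and SREBF2 differed by −1.76 ± 0.123 and −1.70 ± 0.109.

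The exporters and receptors split between the lines. ABCA1 was at 1418 ± 17.3 normalized counts in SW1783 and 87.2 ± 12.4 in HT29, whereas ABCG1 was at 6.2 ± 2.1 and 102 ± 5.8. NR1H3 was 20.6-fold higher in HT29 (−4.36 ± 0.134), and NR1H2 did not differ past the fold limit (0.16 ± 0.07). The other genes not called were PMVK, CYP51A1, INSIG1, SCAP, STARD4 and MYLIP, with log2 differences from −0.56 to 0.25. NPC1L1 had 0 raw counts in SW1783 and 2, 9 and 5 in HT29.

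**Figure D4:**
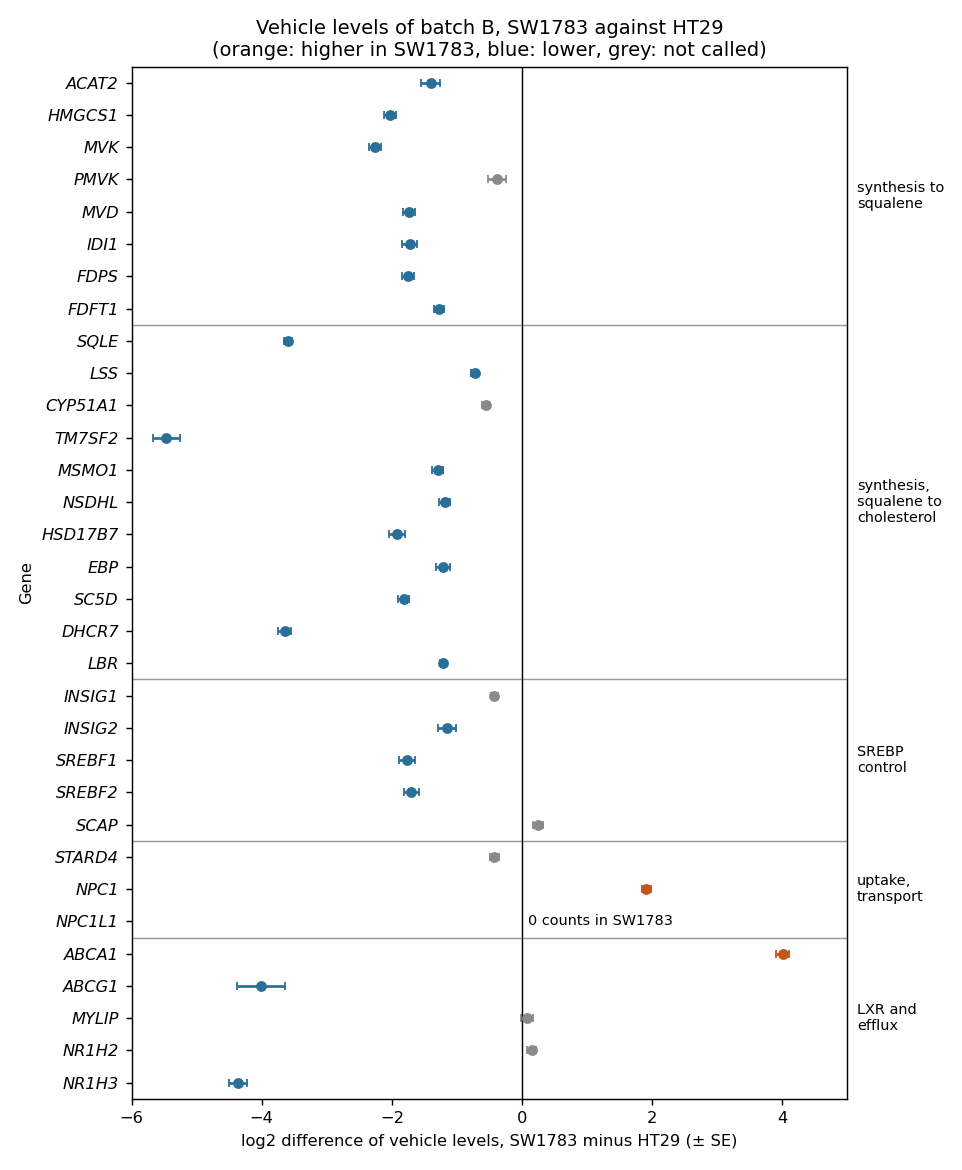
Log2 difference of vehicle levels in batch B, SW1783 minus HT29, ± SE (horizontal axis) for each gene (vertical axis, by role), with called genes in orange (higher in SW1783) or blue (lower). NPC1 and ABCA1 are the 2 orange points, and 23 genes were called lower, of which NPC1L1 is not drawn because it had 0 counts in SW1783.

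Wortmannin, given in batch A, changed few of these genes. In SW1783 none of 30 tested genes was called by DESeq2 (background 2.72%), while 11 had an unadjusted p-value under 0.05 and edgeR called a single gene, TM7SF2. TM7SF2 had 17.9, 24.9 and 23.8 normalized counts in vehicle against 41.5, 38.6 and 38.5 with wortmannin (log2 fold change 0.83 ± 0.353, adjusted p = 0.0551 in DESeq2). Past the adjusted p-value alone, which 33.5% of all genes met, 2 of 30 were higher, MSMO1 (0.25 ± 0.055) and SREBF2 (0.24 ± 0.044), and 6 were lower. These were ACAT2 (−0.49 ± 0.067), ABCA1 (−0.45 ± 0.059), LSS (−0.40 ± 0.059), PMVK (−0.33 ± 0.09), STARD4 (−0.16 ± 0.059) and LBR (−0.14 ± 0.047). ABCA1 had 1622, 1598 and 1567 normalized counts in vehicle against 1070.1, 1221 and 1223 with wortmannin, all lower and on the other side of vehicle from the ACD libraries. INSIG1 and SREBF1 had 0.03 ± 0.037 and −0.10 ± 0.062, with adjusted p-values of 0.603 and 0.218, and ABCG1 had 2, 9 and 7 raw counts in vehicle against 13, 6 and 12 with wortmannin, too few for an adjusted p-value.

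In HT29, wortmannin raised TM7SF2 and ABCG1, 2 of 31 tested genes (6.5%, with a background of 2.71%). TM7SF2 had 926, 861 and 785 normalized counts in vehicle against 1267, 1322 and 1414 with wortmannin. The groups did not overlap, with a log2 fold change of 0.64 ± 0.086 (adjusted p = 1.45e-11). ABCG1 had 76.1, 87.8 and 90.6 and 136, 128 and 129, also without overlap (0.62 ± 0.189, adjusted p = 0.00942). With the replicate number as a block ABCG1 was no longer called (adjusted p = 0.136). Each call also depended on single libraries: that of TM7SF2 was lost without vehicle replicate 3 (0.58), and that of ABCG1 without any of the other 5, with log2 fold changes of 0.55 to 0.64. INSIG1, SREBF1, SREBF2 and ABCA1 had −0.04 ± 0.05, 0.03 ± 0.063, 0.14 ± 0.055 and 0.35 ± 0.196, none past the adjusted p-value. Without the fold limit (19.3% of all genes), 5 of 31 genes were higher and 4 lower, among the latter LBR (−0.40 ± 0.07) and EBP (−0.37 ± 0.109).

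The response to wortmannin differed between the lines past the fold limit for ABCA1 alone among 31 tested genes (background 3.42%), by −0.82 ± 0.149 (SW1783 minus HT29, adjusted p = 1.87e-06), and 6 passed the adjusted p-value alone (15.5% of all genes). ABCA1 had 78.6, 96.3 and 108 normalized counts in the HT29 vehicle and 121, 124 and 119 with wortmannin. For ABCA1 the difference between the lines was thus positive at the high dose of ACD and negative with wortmannin. The vehicles of batches B and A did not differ in any of the 32 genes by DESeq2 or edgeR, in SW1783 (background 0.00348%) or in HT29 (0%), with 1 and 0 genes at an unadjusted p-value under 0.05. Vehicle libraries with the same number in the 2 batches were nearer to each other (chi-square per degree of freedom 1.44 to 1.61) than libraries within a group (1.65 to 65.1), and the labels do not say whether these vehicles are independent samples.

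Of 36 further genes of the pathway, in 4 lists, 4 of 35 tested were called at the high dose in SW1783, 2 higher and 2 lower, a share below the 18.1% of all tested genes. By the adjusted p-value alone, 24 of the 35 differed, 13 higher and 11 lower, a share above the 46.2% of all tested genes. Cholesterol transport and storage, with 13 genes, held OSBP, an oxysterol-binding carrier between membranes, at 1932 ± 57.6 normalized counts in vehicle against 3234 ± 104 at the high dose (log2 fold change 0.74 ± 0.044). GRAMD1A, which moves sterol from the plasma membrane to the endoplasmic reticulum, rose by 0.62 ± 0.057, and TMEM97, a partner of NPC1, fell to 435 ± 30.0 from 710.4 ± 25.1 (−0.71 ± 0.077). Among the 8 genes of the isoprenoid branches PDSS1, which makes the side chain of coenzyme Q, had −0.77 ± 0.162 at the high dose and −0.71 ± 0.157 with wortmannin in SW1783. None of the 8 genes of SREBP processing and sterol-regulated degradation was called in any comparison with vehicle by DESeq2. In the list of LXR partners, an LXR target and oxysterol enzymes, 0 of 6 tested genes were called at the high dose in SW1783. Past the adjusted p-value alone, 0 of these 6 were higher and 2 were lower, where 46.2% of all tested genes passed in either direction. Their median log2 fold change was −0.16.

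In HT29 a single gene of 33 tested was called at the high dose, a share near the 2.89% of all tested genes. This was VLDLR, a receptor for lipoproteins. It had 77.5 ± 11.6 normalized counts in vehicle against 171 ± 8.3 at the high dose with all 3 treated libraries higher (log2 fold change 1.12 ± 0.171, adjusted p = 6.28e-09, and 1.11 ± 0.205 without high replicate 2). In SW1783 VLDLR had 0.41 ± 0.078, under the fold limit. With wortmannin 2 of 33 tested genes were called in SW1783 (background 2.72%) and 1 of 32 in HT29 (background 2.71%). Beside PDSS1, CYP27A1, which makes an oxysterol, was called in SW1783 (0.83 ± 0.336, adjusted p = 0.0429) and GRAMD1C in HT29 (0.64 ± 0.239, adjusted p = 0.0412). At the medium and low doses DESeq2 called none of the 4 lists' genes in either line, with backgrounds of 3.81% and 0.124% in SW1783 and 0.836% and 0.317% in HT29. At an unadjusted p-value under 0.05 there were 16 and 2 of these genes in SW1783 and 2 and 0 in HT29, and edgeR values are not given for these lists.

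Some counts are less certain than their errors. TM7SF2, EBP, CYP51A1, SREBF1, SREBF2, NPC1, ABCG1 and MYLIP overlap another gene on the same strand, in TM7SF2 the protein-coding gene VPS51, and several genes here have processed pseudogenes (HSD17B7, FDPS and CYP51A1 among them), between which RSEM divides reads by a model. The strand setting of the counting was not stated, so reads of genes with an antisense partner cannot be told apart.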

How the data were processed

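mRNA was sequenced from 36 libraries (12 groups of 3) prepared with a directional kit. The authors trimmed reads with Trim Galore, aligned them with STAR to the human genome (named in the study's methods both as GRCh38 and as hg19) and deposited expected counts per gene from RSEM. The submitters' processing notes give Trim Galore 0.6.5, STAR 2.7.3a and RSEM 1.3.3, the study's methods name other versions of the first 2, and the strand setting and the treatment of reads with several positions are not given in the sources used here. Of the deposited expected counts, 8.84% were not whole, and all were rounded.

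Groups came from the sample labels. DESeq2 1.42.0 (R 4.3.3) was fitted on all genes of each line and batch, 12 libraries in batch B and 6 in batch A, with two-sided Wald tests and Benjamini-Hochberg adjustment over all genes, and normalized counts are its size-factor-scaled counts. Differences between lines came from interaction terms over 24 (ACD) or 12 (wortmannin) libraries, and their vehicle difference from the fit of 24. Counts at an unadjusted p-value under 0.05 have no share over all genes beside them and cannot be set against a background. The exception is HT29 between the high and medium doses without high replicate 2. Alternatives were edgeR 4.0.16 with its quasi-likelihood test and TMM scaling, TMM size factors in DESeq2, a low-count filter, other sets of libraries in the fit, a replicate block, leaving out mitochondrial and ribosomal RNA genes, and leaving out each library. The scripts were tested on simulated data.

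The genes and lists were chosen with earlier results of these data known. Values per library are given for genes called at the high dose or with wortmannin, and always for INSIG1, SREBF1, SREBF2, ABCA1 and ABCG1; those of other genes were added after their values were seen. Same-numbered vehicles of the batches deviated together in SW1783 (correlations from 0.232 to 0.294) and HT29 (0.42 to 0.771), whereas in no comparison of a treatment did every pair exceed 0.1. Gene spans are from GENCODE (GRCh38) and windows from RefSeq.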

Additional observations from a re-analysis of the deposited data

Results flagged for a closer look

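The response to the high dose of ACD differed between the lines in a direct interaction test for 10 of the 32 genes, where 14.6% of all tested genes differed. The log2 difference, SW1783 minus HT29, was 2.90 for ABCG1, 2.64 for ABCA1, 1.40 for INSIG1, 1.03 for NPC1, 0.94 for SREBF1, 0.83 for MSMO1, 0.71 for MVD and 0.61 for HSD17B7. It was −0.76 for LBR and −0.62 for MYLIP. At the medium dose it was −0.65 for MYLIP, and with wortmannin −0.82 for ABCA1. These were single calls among 31 tested genes, with backgrounds of 3.33% and 3.42%. Every difference listed here had an adjusted p-value under 0.05 in DESeq2. Mitochondrial ribosomal RNA took 5.93% of the counts at the high dose in SW1783 (vehicle 0.932%) and 11.96% in HT29 (vehicle 1.18%), and the part of this in these differences was not tested. HT29 high replicate 2 stood apart from its group, and all 10 calls held without it. The ABCG1 difference rests on a SW1783 vehicle of only 4, 9 and 5 raw counts.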

How the results depend on the processing

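Over 58 single-gene results and 732 alternatives, 713 kept direction and call, 19 kept the direction but lost the call, and none reversed. These totals include 25 vehicle differences between the lines and 9 differences between doses in SW1783, none of which lost a call. All 19 losses fell on the other results. They were INSIG2 (high dose) and NPC1 (medium dose) in SW1783, ABCG1 and TM7SF2 with wortmannin in HT29, and HSD17B7 and MYLIP in the line difference at the high dose. With the adjusted p-value alone and no fold limit the counts rose as follows, with the share of all tested genes in parentheses. In SW1783 they were 23 of 31 at the high (46.2%), 15 of 31 at the medium (29.2%) and 2 of 25 at the low dose (3.5%). Between its high and medium doses 22 of 31 passed (40.6%). In HT29, 7 of 32 passed at the high dose (7.55%) and 1 of 31 between high and medium doses (1.77%). With wortmannin 8 of 30 passed in SW1783 (33.5%) and 9 of 31 in HT29 (19.3%). For the line differences 18 of 32 passed at the high dose (27.6%), 6 of 31 at the medium dose (10.4%) and 6 of 31 with wortmannin (15.5%). In SW1783 with wortmannin, 1 gene (TM7SF2) in place of 0 was called by edgeR, by the fit on all 18 libraries and after the low-count filter. With the replicate block 1 gene in place of 2 was called in HT29 with wortmannin, where ABCG1 had an adjusted p of 0.136, and the block changed no other count of calls. The labels do not say whether same-numbered samples of the HT29 vehicle and wortmannin groups shared more than a number. Their deviations correlated at 0.154, 0.135 and −0.055. Leaving out each library in turn gave 7 to 9 calls at the high dose and 0 to 2 at the medium dose in SW1783, 9 to 10 between these doses, 1 to 1 in HT29 with wortmannin, and 9 to 12 and 1 to 2 for the line differences at the high and medium doses. The other counts did not move under these omissions. Genes with few counts, such as ABCG1 in SW1783 vehicle and NPC1L1, are limited by depth.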
